A study of Mus musculus with 12 samples.

Results

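The 14-3-3 family comprises 6 genes here, Ywhab, Ywhae, Ywhag, Ywhah, Ywhaq and Ywhaz, which encode the beta, epsilon, gamma, eta, theta and zeta isoforms. They were taken by symbol from the deposited count table, so that 6 of its 24062 genes were described, and all 6 were among the 15440 genes expressed highly enough to be tested. No expression value was used to choose them, although results for some of them were already known when the choice was made. The remaining isoform, sigma (Sfn), was read from the same table as an outgroup.

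RNA was sequenced from mouse cortex at 9 months of age in 4 groups of 3 libraries. WT controls carried neither allele, Tia1+/- mice had 1 functional copy of the gene for the RNA binding protein TIA1, PS19 mice carried a human P301S tau transgene driven by the Prnp promoter with both Tia1 copies intact, and P301S Tia1+/- mice carried the transgene and 1 functional Tia1 copy. The transgene came from a B6;C3 line and the Tia1 allele from a C57BL/6J line, and the mice analysed were offspring of crosses between them. Groups follow the sample titles. For both Tia1-deficient groups the separate genotype field contradicts the title, each giving the genotype of the other.

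14-3-3 proteins are small acidic dimers that bind other proteins at phosphorylated serine or threonine sites and so hold kinases, transcription factors and apoptosis regulators in the cytoplasm or in an inactive state. They are among the most abundant soluble proteins of the brain. Tau is one of their neuronal partners, and 14-3-3 proteins are found in neurofibrillary tangles.

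Library totals ran from 11978962 to 19146484 counts, and 14-3-3 genes had between 3523 counts (Ywhab) and 23114 counts (Ywhaz) in a library, so that counting error alone was at most 1.68% of a value. Neuronal markers were high in all 12 libraries, with a summed level of 6695 CPM (counts per 1000000 scaled counts) or more. Tissue from outside the cortex was also visible: 11 markers of the olfactory bulb summed to 568, 649 and 721 CPM in the P301S Tia1+/- libraries, to 11.9, 14.8 and 9.27 CPM in PS19, to 9.8, 8.8 and 112 CPM in Tia1+/- and to 938, 134 and 34.5 CPM in WT. Striatal markers (7 of 8 listed were in the table) reached 1674 CPM in Tia1+/- replicate 3 and 106 to 294 CPM elsewhere. Xist gave 217 to 367 CPM in Tia1+/- and 261 to 317 CPM in P301S Tia1+/-, but at most 0.423 CPM in WT and 0.783 CPM in PS19. Y-linked genes summed to at least 257 CPM in WT and PS19 libraries and to at most 0.322 CPM in both Tia1-deficient groups. Tia1 genotype and sex, as read from these genes, therefore cannot be told apart in any comparison between them. The study's methods give the mice as male unless noted otherwise, and the paper reads the Y-linked reduction in Tia1+/- mice as regulation by TIA1. In a separate set of younger mice of both sexes, it reports raised Xist and reduced Y-linked transcripts in Tia1+/- males. It also reports raised Xist in Tia1+/- females of that set. Neither reading was tested here. Tia1 itself gave 61.4 to 79.8 CPM in Tia1+/-, 72.6 to 77.8 CPM in P301S Tia1+/-, 70.8 to 77.9 CPM in PS19 and 75.4 to 93.8 CPM in WT, ranges that meet or overlap, so these counts do not check the Tia1 labels. The mutant allele is described as frame shifted, and its transcript may still be counted. Prnp, whose promoter drives the transgene, gave 2018 to 2158 CPM in PS19, 1334 to 1879 CPM in WT, 996 to 1922 CPM in Tia1+/- and 1404 to 1535 CPM in the libraries labelled P301S Tia1+/-. Only PS19 stood above WT, so these counts do not bear out the transgene label of P301S Tia1+/-, and whether transgene reads were counted to Prnp is not given in the sources used here.

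The genes are scattered through the genome. In the GENCODE annotation of GRCm38, Ywhab lies on chromosome 2 (163994960-164018588, plus strand), Ywhah and Ywhag on chromosome 5 (33018816-33027966, plus, and 135908409-135934616, minus), Ywhae on chromosome 11 (75732869-75765845, plus), Ywhaq on chromosome 12 (21390071-21417637, minus) and Ywhaz on chromosome 15 (36770770-36796929, minus). Their coding sequences are 738 to 768 bases long. Over the 15 pairs, coding identity ran from 62.0% (Ywhae with Ywhah) to 78.7% (Ywhag with Ywhah), and the longest exact match was 30 bases. The 3 longest exact stretches shared by coding sequences are shown. Untranslated parts of the exons were not compared, and whether reads were ascribed to the wrong isoform was not tested. Capitals mark the run shared by the pair, and each is given with 15 coding bases on either side, read along the coding strand. Coordinates are those of the capitals, each of which lies within 1 exon.

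Ywhag, chr5:135934338-135934367, minus strand: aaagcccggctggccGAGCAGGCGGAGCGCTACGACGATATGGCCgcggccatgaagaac
Ywhah, chr5:33019110-33019139, plus strand: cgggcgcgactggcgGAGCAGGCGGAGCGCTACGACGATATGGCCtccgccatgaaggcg
Ywhaq, chr12:21417045-21417070, minus strand: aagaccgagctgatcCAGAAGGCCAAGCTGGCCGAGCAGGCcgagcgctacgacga
Ywhaz, chr15:36790931-36790956, minus strand: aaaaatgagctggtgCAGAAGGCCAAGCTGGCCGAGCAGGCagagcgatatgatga
Ywhab, chr2:164015257-164015282, plus strand: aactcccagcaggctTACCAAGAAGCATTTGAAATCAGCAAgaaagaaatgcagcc
Ywhaz, chr15:36775528-36775553, minus strand: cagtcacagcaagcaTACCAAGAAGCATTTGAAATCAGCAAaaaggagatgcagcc

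Exact identity between the coding sequences of isoforms was therefore short and interrupted. Copies elsewhere in the genome are closer. Annotated transcripts that matched at least 100 coding bases at 90% identity or more numbered 9 for Ywhaq, 2 for Ywhaz, 1 for Ywhah and 0 for the others, and most were processed pseudogenes such as Ywhaq-ps3, which is 99.6% identical over 738 bases. Only 2 of these copies had an entry in the count table, both for Ywhaq: Gm7977 with 4 counts over all libraries and Cdk5rap2, a centrosome gene with an annotated transcript that holds 365 bases identical to Ywhaq, with 3527 counts against 84344 for Ywhaq. The pseudogene Gm4202 is 99.9% identical to Ywhaz over 733 bases, and Gm12428 is 98.1% identical to Ywhah over 680 bases. How reads with several matches were counted is not given in the sources used here. The values of Ywhaq, which has the most copies, and those of Ywhaz and Ywhah are less certain for that reason.

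Promoters are shown for the 2 isoforms on chromosome 5, whose levels moved together across libraries, and for Ywhaq, whose level moved with neither. RefSeq sequences for GRCm38.p6 were matched by symbol for 4 of the 6 genes, with Ywhab and Ywhaz unmatched. Each window spans 250 bases before to 50 bases after the start that RefSeq gives the gene, 5′ to 3′ on the strand of the gene. The RefSeq start of Ywhah is that of GENCODE, the Ywhag start lies 25 bases upstream of it, and the Ywhaq start lies 201 bases downstream, so that most of the Ywhaq window lies inside the gene as GENCODE draws it. Capitals mark the motifs searched on both strands: the GC box (GGGCGG), the CCAAT box (CCAAT), the TATA box (TATAAA), the cyclic AMP response element (TGACGTCA) and the E box (CACGTG).

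Ywhag, chr5:135934592-135934891, minus strand: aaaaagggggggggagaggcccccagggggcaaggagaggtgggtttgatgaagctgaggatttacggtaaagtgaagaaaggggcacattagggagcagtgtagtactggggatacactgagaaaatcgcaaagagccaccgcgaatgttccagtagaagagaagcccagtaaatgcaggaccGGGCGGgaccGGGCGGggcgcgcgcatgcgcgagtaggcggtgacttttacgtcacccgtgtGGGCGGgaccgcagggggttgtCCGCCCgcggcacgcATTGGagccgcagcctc
Ywhah, chr5:33018566-33018865, plus strand: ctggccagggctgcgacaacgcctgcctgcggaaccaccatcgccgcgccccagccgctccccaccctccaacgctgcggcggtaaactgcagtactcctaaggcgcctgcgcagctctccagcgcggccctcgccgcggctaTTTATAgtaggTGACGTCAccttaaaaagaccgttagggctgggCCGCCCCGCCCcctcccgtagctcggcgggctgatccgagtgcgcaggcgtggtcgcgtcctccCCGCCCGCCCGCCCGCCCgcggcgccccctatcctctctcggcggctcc
Ywhaq, chr12:21417387-21417686, minus strand: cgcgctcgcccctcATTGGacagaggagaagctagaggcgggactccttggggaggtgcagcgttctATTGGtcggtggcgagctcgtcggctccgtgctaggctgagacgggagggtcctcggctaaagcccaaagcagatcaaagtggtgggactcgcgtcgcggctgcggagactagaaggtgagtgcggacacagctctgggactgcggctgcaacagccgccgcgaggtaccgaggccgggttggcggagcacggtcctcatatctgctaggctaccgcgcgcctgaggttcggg

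GC boxes, some of them overlapping, numbered 4 in the Ywhag window and 6 in the Ywhah window, with 0 in that of Ywhaq (its RefSeq window, mostly inside the GENCODE gene), and 35.7% of 32851 mouse promoters of this length held at least 1. The Ywhah window held 1 match to the TATA box letters, on the opposite strand (TTTATA), and 1 cyclic AMP response element. On either strand these were found in 13.6% and 1.79% of promoters. Ywhaq had 2 CCAAT boxes and Ywhag 1, against 37.4% of promoters with any, and no E box was found in these windows (7.15% of all promoters). Each window was rich in CpG, with 23, 38 and 30 such pairs in Ywhag, Ywhah and Ywhaq and a median of 7 over all promoters. The matched window of Ywhae, not shown, held 2 GC boxes, 0 of the other motifs and 36 CpG pairs. A link between these motifs and the levels was not tested.

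The family as a whole took 3061 to 4564 CPM of a library. Its summed level was lowest on average in P301S Tia1+/- mice, at 3359 ± 258 CPM, and was 4239 ± 290 CPM in PS19, 4017 ± 514 CPM in Tia1+/- and 3740 ± 590 CPM in WT mice (SD, n = 3 for each). Within the family, levels were compared as CPM per kb of annotated exon. Ywhaz, whose product is the most widely connected isoform in interaction studies, was highest in 12 of 12 libraries, with a mean of 279 CPM per kb (range 211 to 333). Ywhah came next in 10 of 12 libraries, with 209 CPM per kb (145 to 252), followed by Ywhaq with 153 (141 to 171), Ywhae with 138 (114 to 168), Ywhag with 124 (84.5 to 164) and Ywhab with 121 (83.4 to 154). The ranges of the last 4 overlapped, and their order changed between libraries. Sfn, an epithelial isoform, had 0.487 CPM per kb, with 5 to 23 counts in a library. The exon lengths come from GENCODE and may differ from those of the annotation used for counting.

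**Figure D1:**
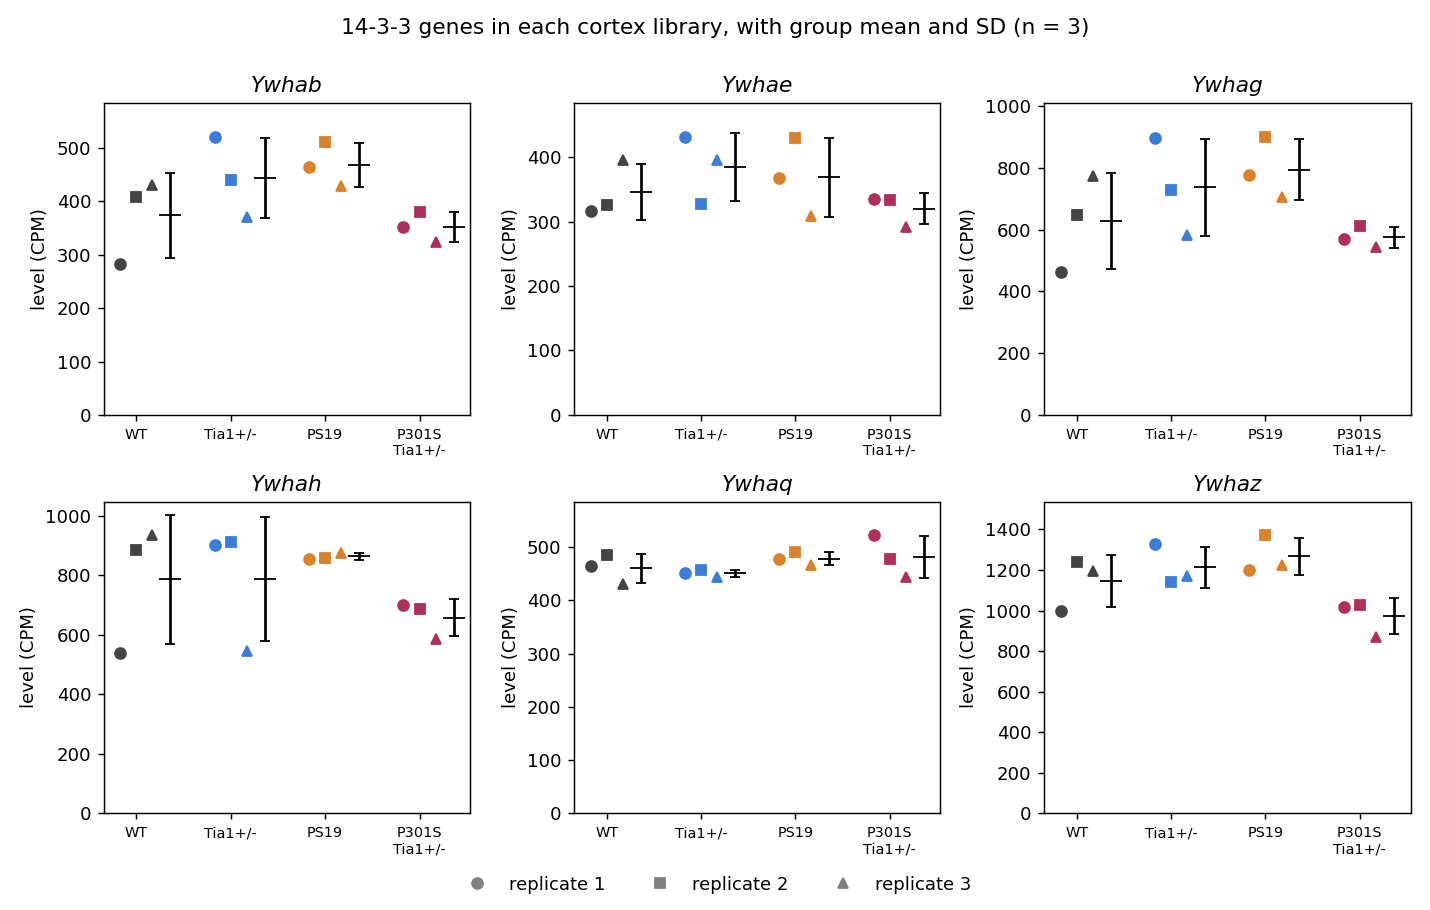
Level of each 14-3-3 gene in CPM (vertical axes from 0) in the 12 libraries, with symbols for replicates and a bar for the mean and SD of each group of 3. Ywhaq sits between 431 and 522 CPM throughout, whereas Ywhah reaches 539 CPM in WT replicate 1 and 545 CPM in Tia1+/- replicate 3 and lies between 856 and 936 CPM in the other WT, Tia1+/- and PS19 libraries.

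The next question was whether P301S tau altered the family in mice with both Tia1 copies. The 6 genes had higher means in PS19 than in WT, by 0.06 to 0.34 on the log2 scale (median 0.14, against -0.01 over all genes tested), but none passed the test. Ywhaz gave 999.6, 1241 and 1192 CPM in the WT libraries and 1201, 1372 and 1226 CPM in PS19. Ywhag, a neuron-rich isoform, gave 464, 648 and 775 CPM in WT and 777, 902 and 705 CPM in PS19. The lowest library of either gene was WT replicate 1, and the groups overlapped. Ywhag had the largest difference of the 6 (log2 fold change 0.34, SE 0.19), with an adjusted p of 0.406 by the quasi-likelihood test of edgeR. Ywhab differed by 0.32 (SE 0.17) with an edgeR adjusted p of 0.352, the smallest of the family. Without WT replicate 1 the differences were 0.17 for both genes, and without WT replicate 3 they were 0.53 for Ywhag and 0.45 for Ywhab. In this comparison 0 of the 6 genes passed, at either an unadjusted p of 0.05 or an adjusted one, and edgeR called 0% of all genes (16.3% at the unadjusted level). DESeq2 likewise called 0 of the 6 and 2.89% of all genes. The 6 genes overlapped between the groups, where 20.8% of all genes did not.

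Tia1+/- mice were then set against WT, which differ from them in Tia1 genotype and in the sex markers. Ywhab, whose product binds the apoptosis regulator BAD, had 282, 409 and 430.3 CPM in WT and 521, 439 and 371 CPM in Tia1+/- libraries, a log2 fold change of 0.25 (SE 0.17) with an edgeR adjusted p of 0.445. For Ywhah, first isolated as an activator of tyrosine and tryptophan hydroxylases, WT libraries had 539, 886 and 936 CPM and Tia1+/- libraries 903, 912 and 545 CPM. Each group thus held 1 library at about the same low level, and the mean difference was 0.00 (SE 0.22). The fitted difference of the family ranged from -0.03 (Ywhaq) to 0.25 (median 0.12), and 0 of 6 genes passed in edgeR, at the adjusted level (0.712% of all genes) or the unadjusted one (19.1%), or in DESeq2 (6.74%). No member was separated between the groups (20% of all genes were). A bulb level was also fitted as a covariate, the mean over the 11 bulb markers of log2 CPM with 0.5 added, not their sum. Ywhah then passed at -0.62, among 1017 genes. The low Ywhah libraries were WT replicate 1, with the highest bulb marker sum of the 12, and Tia1+/- replicate 3, with the highest striatal marker sum and a bulb sum of 112 CPM.

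Of the 5 comparisons between groups, that of P301S Tia1+/- with PS19, both with P301S tau, gave the family median furthest from 0. Ywhaz libraries gave 1201, 1372 and 1226 CPM in PS19 and 1018, 1029 and 869.8 CPM in P301S Tia1+/-. All P301S Tia1+/- libraries were thus below all PS19 libraries. The fitted log2 fold change was -0.38 (SE 0.11), a level 23.2% lower with an unadjusted 95% interval from 8.77% to 35.4% lower. Its adjusted p was 0.135 with edgeR and 0.0252 with DESeq2, which called 5.77% of all genes and no other 14-3-3 gene.

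Ywhag gave 777, 902 and 705 CPM in PS19 and 569, 613 and 545 CPM in P301S Tia1+/-. The difference was -0.47 (SE 0.19), with an edgeR adjusted p of 0.226. Ywhab gave 464, 511 and 428 CPM in PS19 and 352, 381 and 323 CPM in P301S Tia1+/-. Both genes were lower in each P301S Tia1+/- library than in any PS19 library, and for Ywhab the log2 difference was -0.41 (SE 0.17, edgeR adjusted p of 0.22). Ywhah gave 856, 859.6 and 876 CPM in PS19, its tightest group (SD 10.8 CPM), and 700.2, 686 and 587 CPM in P301S Tia1+/-. Its log2 difference of -0.39 had an SE of 0.22 and an edgeR adjusted p of 0.349. The fit shares 1 estimate of the spread with WT (SD 216 CPM) and Tia1+/- (SD 209 CPM), where this gene varied most.

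Ywhae and Ywhaq differed less. Ywhae, which with NDEL1 acts in neuronal migration, had 368, 429 and 308 CPM in PS19 and 334, 334 and 292 CPM in P301S Tia1+/-, an overlap of the groups with a log2 difference of -0.20 (SE 0.14). Ywhaq had 478, 489.8 and 465 CPM in PS19 and 522, 478 and 444 CPM in P301S Tia1+/-. Its log2 difference was 0.01 with an unadjusted 95% interval of -0.16 to 0.19, which runs from 10.7% lower to 13.9% higher.

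In all, 0 of the 6 genes passed edgeR at an adjusted p of 0.05, where 0.24% of all genes did. At an unadjusted p of 0.05 the count was 3 of 6 (Ywhab, Ywhag and Ywhaz, each lower), where 19.3% of all genes passed and 7.62% were lower. The groups did not overlap for 4 of 6, each lower in P301S Tia1+/-, where 38.5% of all genes did not overlap and 18.2% were lower. For each of those 4 the exact permutation test on the 3 and 3 libraries gave p = 0.1, the smallest it can give. The median log2 difference of the family was -0.39, against 0.01 over all genes tested.

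**Figure D2:**
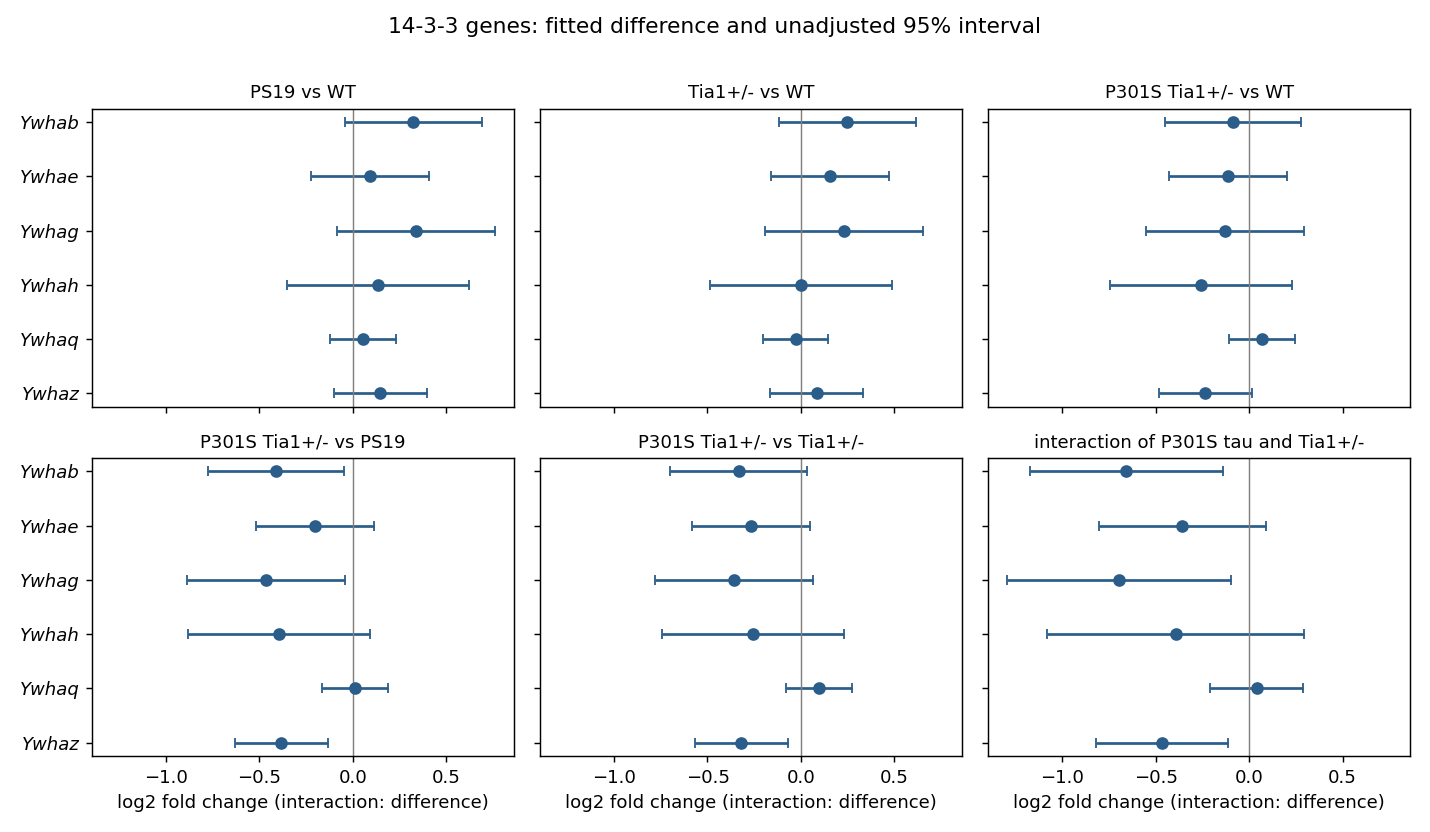
Fitted log2 fold change of each 14-3-3 gene with its unadjusted 95% interval in 5 comparisons between groups and in the interaction (horizontal axes, the difference of differences on the log2 scale). Intervals lie wholly below 0 for Ywhab, Ywhag and Ywhaz in P301S Tia1+/- against PS19 and in the interaction, and for Ywhaz against Tia1+/-, while Ywhaq stays within 0.10 of 0.

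The fit to the 6 libraries of these groups alone passed 4 of the 6 genes: Ywhab (-0.41, SE 0.09, edgeR adjusted p of 0.0123), Ywhag (-0.47, SE 0.10, edgeR adjusted p of 0.0105), Ywhah (-0.39, SE 0.08, edgeR adjusted p of 0.0101) and Ywhaz (-0.38, SE 0.09, edgeR adjusted p of 0.0189). It also passed 3025 of all genes, where the fit to 12 libraries passed 37. Leaving out WT replicate 1 and Tia1+/- replicate 3 from the 12 passed the same 4 genes, with log2 differences of -0.41 to -0.49, and 3569 of all genes. Leaving out WT replicate 1 alone passed Ywhaz (edgeR adjusted p of 0.0347) and 1606 genes.

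The 4 genes moved with the bulb markers. P301S Tia1+/- libraries held at least 568 CPM of these markers and PS19 libraries at most 14.8 CPM, so that the marker level and the genotype contrast coincide. Over the 12 libraries, which share their normalization and their groups, the log2 level of the markers had a Pearson r of -0.87 with Ywhab, -0.87 with Ywhag, -0.79 with Ywhah and -0.81 with Ywhaz, against -0.50 with Ywhae and 0.19 with Ywhaq. Deviations from the group means gave r of -0.81, -0.83, -0.95, -0.48, -0.16 and 0.13 in the same order of genes. Among WT libraries, replicate 1 had both the highest bulb sum and the lowest level of these 4 genes. Markers of other cell types moved too. The 6 astrocyte markers summed to 4112 to 5221 CPM in PS19 and 3420 to 3547 CPM in P301S Tia1+/-, without overlap, and their log2 level had an r of 0.78 with Ywhab, 0.81 with Ywhag, 0.60 with Ywhah and 0.68 with Ywhaz over the 12 libraries. The 10 neuronal markers overlapped between these groups (7589 to 9437 CPM in PS19 and 7385 to 8263 CPM in P301S Tia1+/-) and had an r of 0.85 with Ywhah and 0.50 to 0.58 with the other 3 genes. Oligodendrocyte markers had r of 0.61, 0.54, 0.43 and 0.53 with Ywhab, Ywhag, Ywhah and Ywhaz. Striatal markers had r of -0.39, -0.43, -0.73 and -0.13 with these genes in the same order. On deviations from the group means the striatal values were -0.65, -0.66, -0.84 and -0.29. The neuronal values on this measure were 0.72, 0.71, 0.89 and 0.60, and the astrocyte values 0.67, 0.72, 0.46 and 0.43. Oligodendrocyte values were 0.46, 0.40, 0.53 and 0.57. For Ywhaz the neuronal and oligodendrocyte values were larger in size than its bulb value of -0.48. The part of astrocyte, neuronal, oligodendrocyte and striatal content in the differences was not tested.

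**Figure D3:**
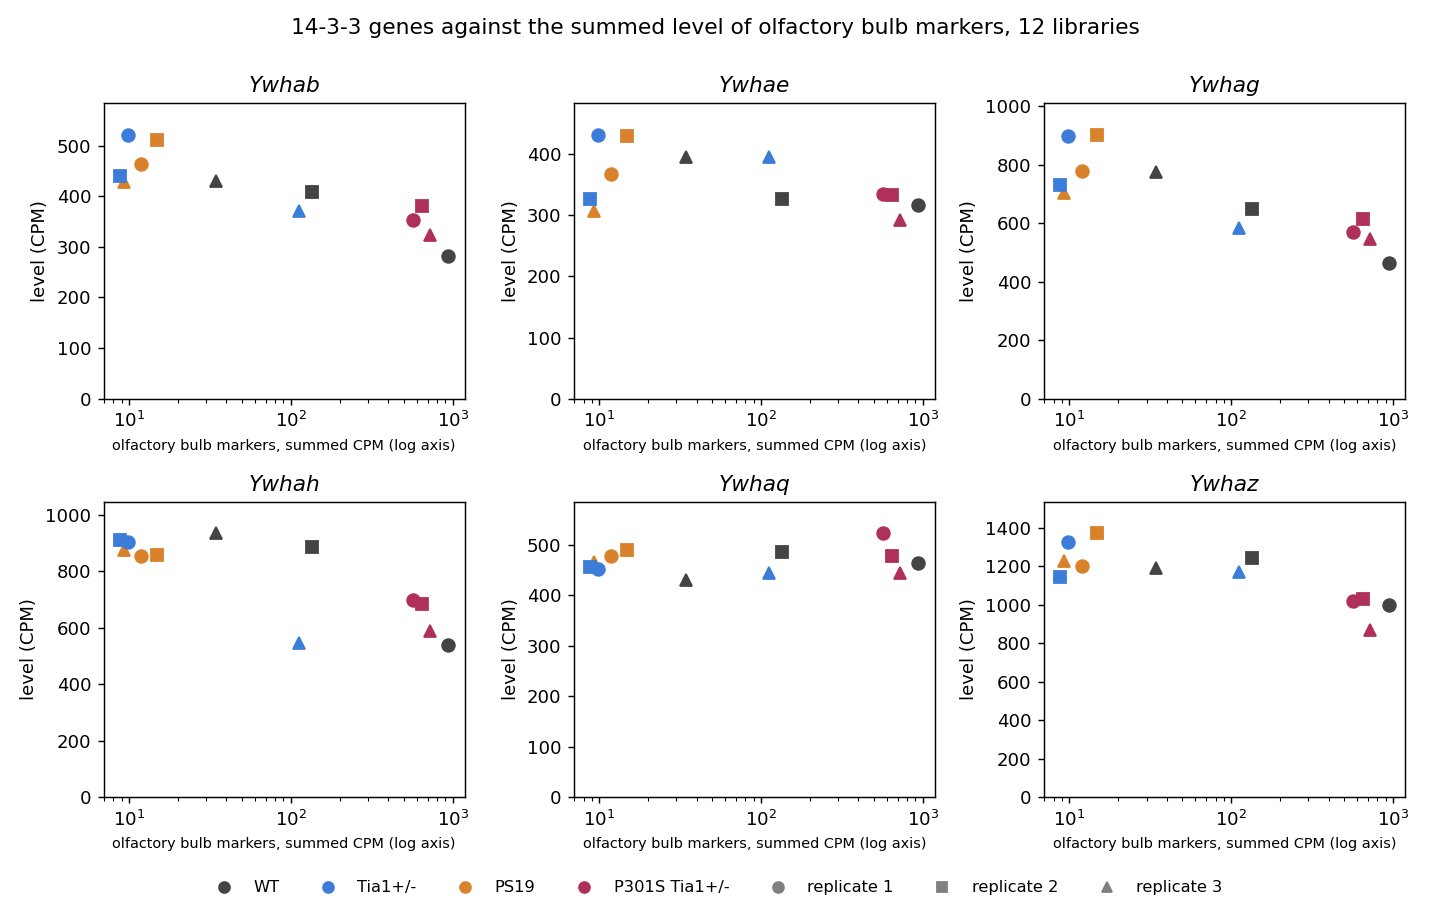
Level of each 14-3-3 gene in CPM against the summed CPM of 11 olfactory bulb markers (logarithmic horizontal axis) in the 12 libraries, coloured by group. Ywhab, Ywhag, Ywhah and Ywhaz lie lower in the P301S Tia1+/- libraries and WT replicate 1, at 568 to 938 CPM of markers, than in PS19 libraries at 9.27 to 14.8 CPM, and Ywhaq is level across this range. Ywhah is at 545 CPM in Tia1+/- replicate 3, with 112 CPM of markers, near its 539 CPM in WT replicate 1. It is higher in WT replicate 2, with 134 CPM of markers.

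With the bulb level as a covariate, the differences between P301S Tia1+/- and PS19 turned positive for Ywhab (0.34), Ywhag (0.41), Ywhah (0.78) and Ywhae (0.02), stayed negative for Ywhaz at -0.07 and left Ywhaq near 0. Ywhah then passed (SE 0.19, edgeR adjusted p of 0.0453), among 678 of all genes. Since the covariate does not overlap between these 2 groups, its slope is set by the spread within groups, mainly of the WT and Tia1+/- libraries. The part of bulb tissue in the differences was not otherwise tested. In bulk tissue, fewer cells of a type and less RNA per cell cannot be told apart.

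**Figure D4:**
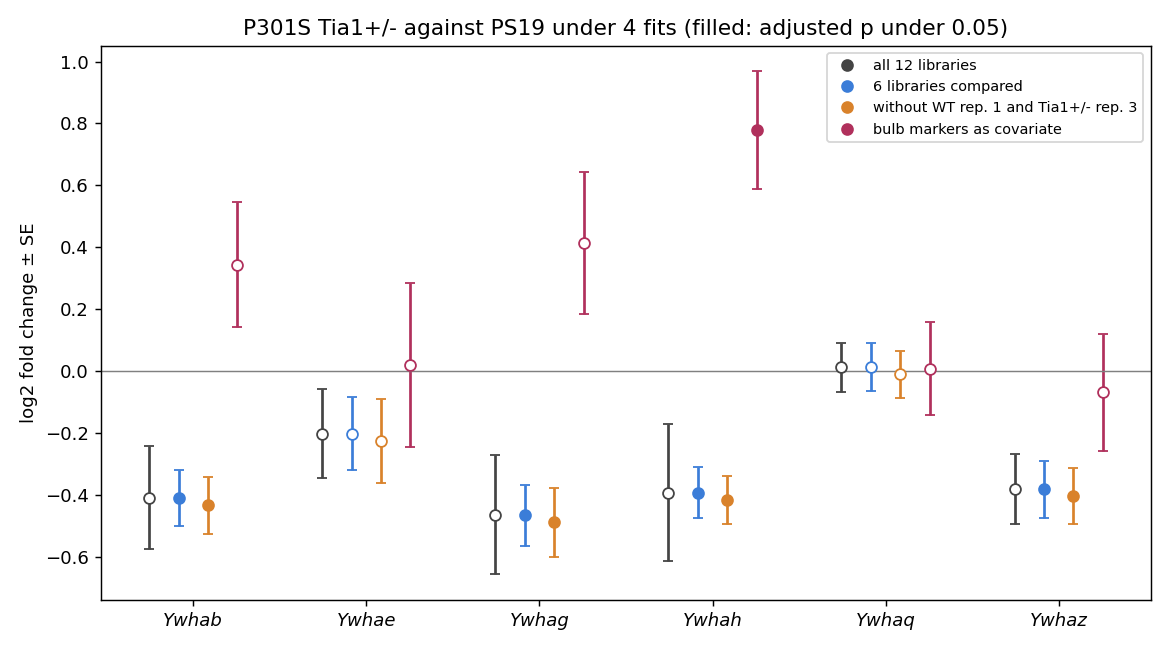
Log2 fold change with its SE for each 14-3-3 gene in P301S Tia1+/- against PS19 under 4 edgeR fits, where filled points passed an adjusted p of 0.05. The fits to all 12 libraries, to the 6 compared and without 2 libraries lie close together for each gene, from -0.38 to -0.49 for Ywhab, Ywhag, Ywhah and Ywhaz, and the covariate fit lies above them, at 0.78 for Ywhah and -0.07 for Ywhaz.

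Against Tia1+/- mice, which share the Tia1 genotype and the sex markers, P301S Tia1+/- mice had lower means for 5 of the 6 genes. Ywhaz gave 1329, 1142 and 1169 CPM in Tia1+/- and 1018, 1029 and 869.8 CPM in P301S Tia1+/-, which did not overlap. Its log2 difference was -0.32 (SE 0.11), with an unadjusted p of 0.0165 and an edgeR adjusted p of 0.244. The other 5 genes overlapped, with log2 differences from -0.36 (Ywhag) to 0.10 (Ywhaq). Non-overlap with lower values in P301S Tia1+/- was thus found for 1 of 6 genes (11.1% of all genes, and 26% in either direction). None of the 6 passed the adjusted test in edgeR, which called 0% of all genes, or in DESeq2 (2.62%), and 1 of 6 passed at the unadjusted level (15.6%). Same-numbered libraries of these 2 groups correlated weakly in their deviations (r of 0.123 to 0.24), and the labels do not tie them. A fit to the 6 libraries with the replicate number as a block, chosen after seeing the data, passed no 14-3-3 gene either, among 145 genes. Leaving out WT replicate 1 and Tia1+/- replicate 3 passed Ywhab, Ywhag, Ywhah and Ywhaz, at -0.46, -0.51, -0.48 and -0.36, and 3646 of all genes. The remaining Tia1+/- libraries then held at most 9.8 CPM of bulb markers. With the bulb level as a covariate Ywhah alone passed, at 0.80 (SE 0.18, edgeR adjusted p of 0.0284), in the opposite direction, among 935 of all genes.

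Against WT, P301S Tia1+/- libraries differed by -0.26 (Ywhah) to 0.07 (Ywhaq). None of the 6 passed at either level (1.31% of all genes passed the adjusted edgeR test, 18% the unadjusted one and 7.15% that of DESeq2), and none was separated between groups (23.2% of all genes were). Ywhaz came nearest, at -0.24 (SE 0.11, edgeR adjusted p of 0.306). WT replicate 1 lay within or below the range of the P301S Tia1+/- libraries for Ywhab, Ywhag, Ywhah and Ywhaz, and was also the WT library nearest to them in bulb markers, at 938 CPM. Without WT replicate 1 and Tia1+/- replicate 3, Ywhah (-0.49) and Ywhaz (-0.34) passed, with edgeR adjusted p of 0.00188 and 0.0267, among 4021 of all genes.

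Whether the effect of P301S tau depended on Tia1 genotype was tested as the interaction. This sets the difference between PS19 and WT against that between P301S Tia1+/- and Tia1+/-. Y-linked levels follow Tia1 genotype over the 4 groups, so dependence on Tia1 and on sex cannot be told apart in this term. With 2 Tia1 copies the 6 genes had higher means with tau, and with 1 copy 5 had lower means and Ywhaq a higher one, none past the adjusted test. The interaction was -0.69 for Ywhag (SE 0.27), -0.66 for Ywhab (SE 0.23) and -0.47 for Ywhaz (SE 0.16), each past an unadjusted p of 0.05, as 22.9% of all genes were. No 14-3-3 gene passed the adjusted test: the smallest edgeR adjusted p was 0.13 (Ywhaz), and edgeR called 0.00648% of all genes. DESeq2 gave an adjusted p of 0.0545 for Ywhaz and called 8.08% of all genes. Ywhae and Ywhah had interactions of -0.36 and -0.39, and Ywhaq one of 0.04. The bulb level as a covariate turned the interaction of Ywhah to 1.4 (SE 0.29, edgeR adjusted p of 0.0256, 809 of all genes passing), and leaving out WT replicate 1 and Tia1+/- replicate 3 passed Ywhab, Ywhag and Ywhah at -0.62, -0.68 and -0.41, among 2106 of all genes.

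Ywhab, Ywhag, Ywhah and Ywhaz varied together from library to library. Over the 12 libraries, which share depth, normalization and groups, Ywhab and Ywhag had a Pearson r of 0.98 (Spearman rho 0.99), and the 10 pairs without Ywhaq ran from 0.33 (Ywhae with Ywhah) to 0.98 with a median of 0.78. The 5 pairs with Ywhaq ran from -0.12 to 0.06. On deviations from the group means Ywhaq with Ywhaz reached 0.40 (0.42 over all groups without the 2 farthest libraries), and Ywhae with Ywhah had 0.19 (0.14). Ywhaq therefore made up a larger share of the family where the others were low. Of the summed CPM per kb, it held 17.4% ± 0.80 in P301S Tia1+/- (SD, n = 3), 13.9% ± 0.58 in PS19, 13.9% ± 1.52 in Tia1+/- and 15.3% ± 2.77 in WT, where replicate 1 reached 18.2%. The share did not overlap between P301S Tia1+/- and PS19, and the exact permutation test gave its smallest possible value (p = 0.1, n = 3 and 3). The same held in this comparison for the shares of Ywhab, Ywhag and Ywhaz, each lower in P301S Tia1+/-. It was not particular to this comparison. The Ywhab share was higher without overlap in PS19 (by 1.34 points) and in Tia1+/- (1.25) than in WT. The Ywhaq share was higher without overlap in P301S Tia1+/- than in Tia1+/- (3.52 points). The exact permutation test gave p = 0.1 for each. Shares are parts of the same sum, so the rise for Ywhaq is not separate from the lower levels of the others. Ywhaz held 25.7% to 30.0% of the sum in every library.

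Among 15434 other genes, those most like each isoform over the 12 libraries by Pearson r of log2 CPM were as follows. Ywhab was closest to Ctnnd2, which encodes the neuronal catenin delta-2 (r = 0.98), Vps53 (0.98) and Pip4k2b (0.98), and Ywhag had the same 3 neighbours at 0.97 to 0.98. Ywhah was closest to Tmem56, Khdrbs3 and Camk2n1, an inhibitor of CaMKII (0.98 to 0.99). Ywhaz was closest to Fnbp1l, Vcpip1 and 2900056M20Rik (0.94 to 0.96), Ywhae to Morf4l1, Gm20594 and Pitpnb (0.92 to 0.93), and Ywhaq to Hsbp1, Paip2b and Tmem68 (0.87 to 0.90). None of the 18 neighbours was another 14-3-3 gene because the family was left out of the search.

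Partners of the family were read from lists of kinases that create 14-3-3 binding sites, kinases that phosphorylate 14-3-3 proteins, and clients of the family in growth factor signalling, apoptosis, the cell cycle, nuclear shuttling and neurons. Their 70 genes were all tested. In 5 of the 6 tests 0 of 70 passed edgeR at the adjusted level. At the unadjusted level 11 of 70 passed in PS19 against WT (16.3% of all genes), 17 in P301S Tia1+/- against PS19 (19.3%), 16 in Tia1+/- against WT (19.1%), 20 in P301S Tia1+/- against Tia1+/- (15.6%), 17 in P301S Tia1+/- against WT (18%) and 24 in the interaction (22.9%). In P301S Tia1+/- against WT 1 of 70 passed the adjusted test (1.31% of all genes): Sik2, a salt-inducible kinase that phosphorylates the CREB coactivators, whose phosphorylated form is held by 14-3-3. Sik2 gave 45.3, 43.2 and 47.4 CPM in WT and 20.4, 29.1 and 23.0 CPM in P301S Tia1+/- libraries. It fell by 0.91 on the log2 scale (SE 0.16, edgeR adjusted p of 0.0268), with no overlap. That pass was lost with the fit to the 6 libraries compared (edgeR adjusted p of 0.111), with the replicate block (0.067), with the 2 Tia1-deficient groups exchanged (0.0509) and without WT replicate 2 or any 1 of the P301S Tia1+/- libraries (0.05 to 0.13). Sik2 gave 23.3, 24.0 and 30.9 CPM in Tia1+/- and 28.2, 23.5 and 31.7 CPM in PS19, so that WT libraries stood above all 9 others, without an adjusted pass in the latter 2 groups (edgeR adjusted p of 0.0509 and 0.157).

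In P301S Tia1+/- against PS19, Irs1 and Th were among the list genes with the smallest p. Irs1, an insulin receptor substrate, gave 36.3, 34.6 and 39.7 CPM in PS19 and 61.8, 62.1 and 73.2 CPM in P301S Tia1+/-, a log2 difference of 0.83 (SE 0.15) with an edgeR adjusted p of 0.0514. It did not pass edgeR on all 12 libraries. It did pass DESeq2, edgeR on the 6 libraries compared (adjusted p of 0.000436) and edgeR without WT replicate 1, WT replicate 3 or Tia1+/- replicate 3 (0.00118 to 0.046). Th, tyrosine hydroxylase, gave 1.30, 3.36 and 2.05 CPM in PS19 and 70.2, 66.8 and 76.3 CPM in P301S Tia1+/- (5.03, SE 1.27, edgeR adjusted p of 0.105), and 97.7 CPM in WT replicate 1, the same libraries that were high in bulb markers. Th passed DESeq2 (adjusted p of 0.00244), edgeR on the 6 libraries compared (2.15e-06) and edgeR without WT replicate 1 (0.0102). With the bulb covariate its difference was -0.65, which did not pass. The 4 kinases of 14-3-3 proteins, Mapk8, Mapk9, Mapk10 and Csnk1a1, had a median of -0.22 with 0 past the unadjusted level. The 15 neuronal clients had 11 lower and 4 higher, a median of -0.19 and 5 past the unadjusted level, against 48.5% of all genes below 0 and 19.3% past that level. Kinases that create binding sites had 13 of 19 lower (median -0.09, 3 past the unadjusted level) and cell cycle clients 3 of 4 (-0.19, 0 past). Lists with more genes higher were the growth factor clients (6 of 10, median 0.03, 4 past), the apoptosis and stress clients (5 of 8, 0.08, 3 past) and the nuclear shuttling clients (6 of 10, 0.08, 2 past).

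Elsewhere the smallest p of the lists belonged to a few kinases and clients. In PS19 against WT these were Sik2 (-0.70), the survival kinase Pim1 (-1.78) and Irs1 (-0.60), with edgeR adjusted p of 0.157 to 0.159. In Tia1+/- against WT they were Sik2 (-0.80), the microtubule affinity kinase Mark3 (-0.42) and Pim1 (-1.70), with edgeR adjusted p of 0.0509 to 0.0744. In P301S Tia1+/- against Tia1+/- they were Irs1 (0.82), Sik1 (1.24) and the ubiquitin ligase Nedd4l (-0.62), and in the interaction Irs1 (1.42), Sik1 (2.09) and Th (7.48), none past the adjusted level in edgeR on all 12 libraries. DESeq2 passed each of these genes in these comparisons. In P301S Tia1+/- against Tia1+/- edgeR on the 6 libraries compared passed Irs1, Sik1 and Nedd4l (adjusted p of 0.0175 to 0.0401), as did leaving out WT replicate 1 (0.00203 to 0.032). In the interaction Irs1, Sik1 and Th passed without WT replicate 3 (0.0124 to 0.0289) or Tia1+/- replicate 3 (0.0403 to 0.041), and Irs1 without WT replicate 1 (0.00572). In Tia1+/- against WT, Mark3 and Pim1 passed without WT replicate 3 (0.0386 and 0.0312). The comparisons share groups, so their values are not independent of one another.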

How the data were processed

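Cortex RNA of 12 libraries was measured as read counts per gene. Per the study's methods, the authors made stranded total RNA libraries, aligned reads to mm10 with TopHat (TopHat2 2.0.6 in the submitters' processing notes) and deposited raw counts from featureCounts. Strand and multi-mapping settings are not given in the sources used here. Members, lists, tests and alternatives were chosen with earlier results of these data known. Named genes were the 6 members and Sfn, list genes that passed or else the 3 of smallest p per comparison, and the 3 genes most like each member. One list gene is not reported here.

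Counts were filtered (filterByExpr), scaled (TMM) and fitted with the quasi-likelihood test of edgeR 4.0.16 in R 4.3.3 to all 12 libraries with a mean per group. P-values were adjusted over 15440 genes by Benjamini-Hochberg at a threshold of 0.05. DESeq2 1.42.0, the tool of the study, was an alternative. Libraries are separate samples, 1 per mouse per the study, and no pair agreed within sampling noise. Totals were 11978962 to 19146484, and intervals on counts cover counting error only. Log2 CPM used a prior count of 2. Near copies were found with blastn 2.17.0. The edgeR and DESeq2 scripts were tested on simulated data. Same-numbered libraries correlated above 0.1 in all 3 pairs for P301S Tia1+/- with Tia1+/- only (0.123 to 0.24), though nothing in the labels ties them.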

Additional observations from a re-analysis of the deposited data

How the results depend on the processing

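Of 324 differences of 14-3-3 genes recomputed under alternatives that kept or jointly left out libraries, 249 kept their direction and their side of the threshold, 57 turned and 18 newly passed in the same direction. Of 144 differences of named partner genes 99 kept both, 35 newly passed, 3 no longer passed and 7 turned. Scaling by DESeq2 size factors turned only values near 0: Ywhaq in P301S Tia1+/- against PS19 (-0.000385) and Ywhah in Tia1+/- against WT (-0.0017). DESeq2 gave -0.00034 and -0.0017 for them, passed 1 14-3-3 gene in P301S Tia1+/- against PS19, and called 854 of all genes there, 445 in PS19 against WT, 978 in Tia1+/- against WT, 404 in P301S Tia1+/- against Tia1+/-, 995 in P301S Tia1+/- against WT and 1245 in the interaction. edgeR called 37, 0, 110, 0, 203 and 1 in the same order. A minimum of 10 counts in every library gave 15 genes in P301S Tia1+/- against PS19 and 0 in the interaction. No filter gave 73 in Tia1+/- against WT, 122 in P301S Tia1+/- against WT and 5 in the interaction.

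Fits to the libraries compared called 4 14-3-3 genes and 3025 of all genes in P301S Tia1+/- against PS19, 334 genes in P301S Tia1+/- against Tia1+/-, 14 in P301S Tia1+/- against WT and 6 in Tia1+/- against WT. The replicate block changed no call of a 14-3-3 gene, moved Ywhah in Tia1+/- against WT to -0.0079 and called 7 genes in P301S Tia1+/- against PS19, 18 in P301S Tia1+/- against WT, 9 in Tia1+/- against WT and 0 in the interaction. The block with the libraries compared, chosen after seeing the data, called 145 in P301S Tia1+/- against Tia1+/-. Of 18 same-numbered pairs 7 correlated above 0.1 and 1 of 12 libraries correlated best with its own number.

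Without WT replicate 1 and Tia1+/- replicate 3 together, 14-3-3 genes called numbered 4 of 3569 in P301S Tia1+/- against PS19, 4 of 3646 against Tia1+/-, 2 of 4021 against WT and 3 of 2106 in the interaction. PS19 against WT then called 74 and Tia1+/- against WT 267. Ywhaq turned to -0.0115 against PS19, and Ywhah to -0.0729 in PS19 against WT and -0.0109 in Tia1+/- against WT. The bulb covariate called 1 14-3-3 gene (Ywhah) in P301S Tia1+/- against PS19 (678 genes in all), in P301S Tia1+/- against Tia1+/- (935), in Tia1+/- against WT (1017) and in the interaction (809), with 1426 genes in P301S Tia1+/- against WT and 270 in PS19 against WT. It turned Ywhab (0.34), Ywhae (0.0194), Ywhag (0.41), Ywhah (0.78) and Th (-0.65) in P301S Tia1+/- against PS19, and Ywhab (0.34), Ywhag (0.43) and Ywhah (0.80) in P301S Tia1+/- against Tia1+/-. In P301S Tia1+/- against WT it gave 0.20, 0.21 and 0.18 for these 3 genes. In PS19 against WT it gave Ywhab -0.15, Ywhae -0.0511, Ywhag -0.21, Ywhah -0.60 and Ywhaz -0.0546, and in Tia1+/- against WT Ywhab -0.14, Ywhag -0.22, Ywhah -0.62 and Ywhaz -0.0782. Its interactions were Ywhab 0.49, Ywhag 0.64, Ywhah 1.4, Ywhaz 0.00867 and Th -1.70. The cause of these turns was not tested.

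Exchanging the 2 Tia1+/- groups, as the genotype entries would have it, turns by construction what is compared. P301S Tia1+/- against PS19 then called 11 genes, with Ywhae 0.0631 and Ywhaq -0.0842. Against Tia1+/- the values were Ywhab 0.33, Ywhae 0.27, Ywhag 0.36, Ywhah 0.26, Ywhaq -0.10, Ywhaz 0.32, Irs1 -0.82, Sik1 -1.24 and Nedd4l 0.62. Against WT they were Ywhab 0.25, Ywhae 0.15, Ywhag 0.23, Ywhah 0.00030, Ywhaq -0.0289 and Ywhaz 0.0845, with 110 genes called. Tia1+/- against WT called 203, with Ywhab -0.0861, Ywhae -0.11, Ywhag -0.13, Ywhah -0.26, Ywhaq 0.0672 and Ywhaz -0.24. The interaction called 0, with Ywhab 0.0100, Ywhae 0.18, Ywhag 0.0199, Ywhah 0.12, Ywhaq -0.15, Ywhaz 0.17, Irs1 -0.22 and Sik1 -0.39. No 14-3-3 gene passed with the groups exchanged.

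Leaving out 1 replicate at a time called 0 to 1 14-3-3 genes in P301S Tia1+/- against PS19 and 6 to 1606 of all genes, 0 to 1 genes in PS19 against WT, 8 to 497 in Tia1+/- against WT, 0 to 956 in P301S Tia1+/- against Tia1+/-, 9 to 1637 in P301S Tia1+/- against WT and 0 to 1035 in the interaction. The highest counts came without WT replicate 1, except in PS19 against WT (PS19 replicate 3), Tia1+/- against WT and the interaction (WT replicate 3). Directions turned for Ywhaq against PS19 (-0.0518 to 0.0676), Ywhae (-0.0273 to 0.21) and Ywhah (-0.0678 to 0.29) in PS19 against WT, Ywhah (-0.20 to 0.21) and Ywhaq (-0.0635 to 0.0115) in Tia1+/- against WT, Ywhab (-0.25 to 0.0176) and Ywhag (-0.30 to 0.0391) in P301S Tia1+/- against WT and Ywhaq (-0.0233 to 0.0872) in the interaction. With 3 libraries per group, depth limited none of the 14-3-3 values and the spread between libraries limited them all. Sfn, at 5 to 23 counts, was too shallow to compare.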
